A study of Mus musculus with 3 samples.

Results

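Solitary narrow H3K4me3 regions are short stretches of trimethylated histone H3 lysine 4 that were called far from any other region of the mark and away from H3K27me3. They were chosen from the authors' called regions by position alone. A member is 400 bp wide or less, lies more than 10 kb from every other H3K4me3 region and more than 5 kb from every H3K27me3 region, measured edge to edge, and is on an autosome. The rule was met by 5390 of the 47928 H3K4me3 regions (11.2%), which is 11.5% of the 46685 autosomal ones. Width, the distance to H3K4me3 and the distance to H3K27me3 chose the members, so their values near those limits are given as descriptions only. The regions were compared with 6994 narrow regions of the same list that lay 10 kb or less from an H3K4me3 region wider than 400 bp, also over 5 kb from H3K27me3. A second comparison set was the 8130 solitary regions wider than 400 bp, which met the same distance limits.

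The cells were primordial germ cells of E11.5 mouse embryos from a cross of a transgenic Oct4:GFP B6 line with Swiss-Webster females. Gonadal regions of several embryos were pooled, and GFP+ cells were sorted. All groups share this cross, age and sort, and they differ in the antibody (anti-H3K4me3, anti-H3K27me3, or none for the input). The libraries of both marks had the same number of amplification cycles, and the input had fewer. The series has 3 samples, each of which represents 2 replicates, and 1 list of regions was analysed for each of the 2 marks. The input is not used here. Both lists hold positions on build mm9 in steps of 200 bp, with no read counts, so the depth behind a region is unknown and no difference could be tested over replicates. Percentages carry 95% Wilson intervals. These cover the counting of regions only and treat neighbouring regions as independent, which they may not be. The Oct4 reporter defines the sorted cells, and whether other cells passed the gate could not be examined from positions without an mm9 annotation.

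H3K4me3 is written by the SET1 and MLL (COMPASS) complexes and removed by KDM5 demethylases. The SET1 complexes contain CFP1, which binds unmethylated CpG-rich DNA. The mark is best known from the starts of active and CpG-rich genes, where it usually spreads over several nucleosomes. Small patches of the mark are also found at some enhancers, at transcribed repeats and, later in germ cell life, at the meiotic recombination sites marked by PRDM9. Primordial germ cells lose most of their DNA methylation in the course of their development, and at E11.5 they have not entered meiosis. None of these features was measured here. The sequence and the gene context of the regions are not analysed here, since the reference tables used are of assembly GRCm38 and the regions are on mm9.

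Narrow regions made up 18379 of the autosomal H3K4me3 regions (39.4%), and most of them, like most wider regions, were not solitary. Members were 29.3% (28.7 to 30.0%) of the narrow regions. Solitary wider regions were 28.7% (28.2 to 29.3%) of the wider ones, so narrow regions were solitary about as often as wider ones. Of the narrow regions, 6409 (34.9%, 34.2 to 35.6%) had no other H3K4me3 region within 10 kb. Of those, 777 (12.1%, 11.3 to 12.9%) overlapped H3K27me3, 242 (3.78%) lay within 5 kb of it without overlap, and 5390 (84.1%) were left as members. Wider regions were isolated in 38.1% (37.6 to 38.7%) and, once isolated, overlapped H3K27me3 in 22.2% (21.4 to 23.0%). The share of isolated regions that overlapped H3K27me3 was thus lower for narrow than for wider ones, with no adjustment for region length and no test. The share of isolated regions within 5 kb of H3K27me3 did not rise steadily with width. It was 15.3% at 200 bp, 32.3% at 1200 to 1400 bp and 21.8% at 2200 to 3000 bp. Narrow regions that were neither solitary nor close to a wider region numbered 2372, and 3623 narrow regions lay within 5 kb of H3K27me3.

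The solitary narrow regions covered 1.501 Mb, or 3.08% of the autosomal H3K4me3 length. Of the members, 3276 were 200 bp wide, the smallest width in the list, and 2114 were 400 bp wide. The share of 200 bp was 60.8% (59.5 to 62.1%), lower than the 70.5% (69.5 to 71.6%) of narrow regions close to a wider region. The narrow regions of neither set had 69.9% (68.0 to 71.7%), near the value of the close ones. Read by width, a region of 400 bp was solitary more often than one of 200 bp. The solitary share was 27.2% (26.4 to 28.0%) at 200 bp, 33.3% (32.1 to 34.5%) at 400 bp, 29.4% (28.1 to 30.7%) at 600 bp and 24.7% (23.2 to 26.2%) at 1000 bp. It was 33.4% (32.1 to 34.6%) again at 1600 to 2000 bp and 8.50% (5.86 to 12.2%) above 5 kb. The solitary share therefore had a peak at 400 bp and another near 2 kb, with a dip between them.

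**Figure D1:**
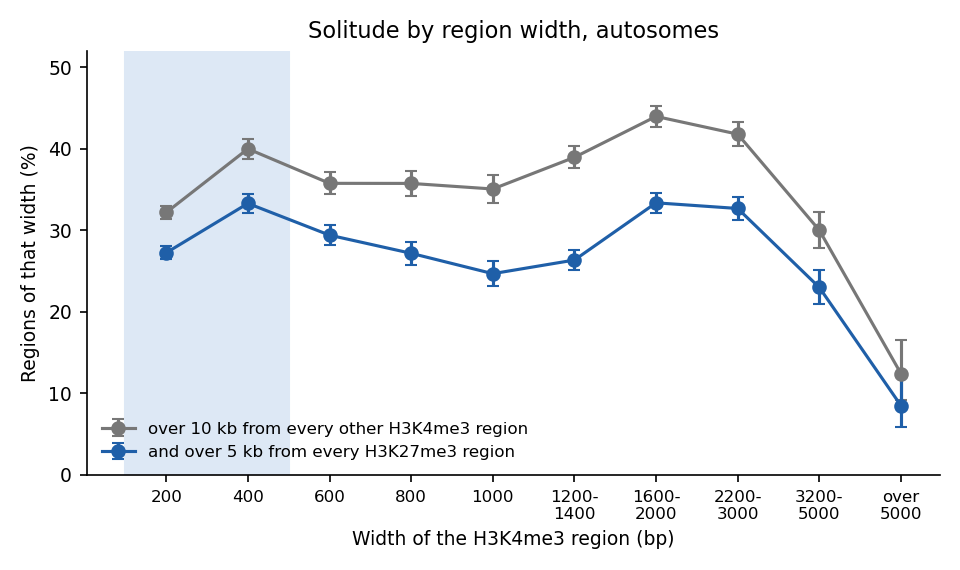
Share of autosomal H3K4me3 regions of each width (x axis, bp) that were over 10 kb from every other H3K4me3 region (grey) and also over 5 kb from H3K27me3 (blue). Points are percentages of the regions of that width with 95% Wilson intervals, and the shaded widths are the narrow ones. The blue values are 27.2% at 200 bp and 33.3% at 400 bp.

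The limits of the rule fell inside continuous distributions. At the limit on H3K4me3, 68 members lay at 10200 bp from their nearest neighbour and 88 narrow regions lay just outside, at 10000 bp. Just inside were, among others, chr1:39523401-39523600, which is 10.2 kb from a region of 2200 bp, and the pair chr1:91773401-91773600 and chr1:91783801-91784200, which are each other's neighbours. The others were chr1:138261601-138261800 and chr1:151797401-151797600, next to regions of 600 and 800 bp. Just outside were chr1:39103601-39103800, chr1:53870401-53870600, chr1:53880601-53880800, chr1:64799801-64800200 and chr1:127584401-127584800, all at 10.0 kb. These regions were taken in chromosome order among ties. At the limit on H3K27me3, 4 members lay at 5200 bp and 12 isolated narrow regions at 5000 bp. At the limit on width, 1425 regions of 600 bp met both distance limits.

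Beyond the 10 kb that the rule required, the members covered a wide range of isolation. The median distance to the nearest other H3K4me3 region was 23.4 kb (quartiles 15.0 and 46.2 kb), and the largest was 1899.2 kb. Solitary wider regions had a similar median of 24.2 kb but a shorter tail. The 95th percentile was 219 kb for the narrow regions and 128 kb for the wider ones. Members over 100 kb from any other region numbered 668 (12.4%, 11.5 to 13.3%), against 609 (7.49%, 6.94 to 8.08%) of the solitary wider regions. Over 500 kb the numbers were 64 (1.19%, 0.931 to 1.51%) and 31 (0.381%, 0.269 to 0.541%). Narrow and wider solitary regions thus differed more in the far tail than at the median. Both sets are what the H3K27me3 limit left, and it removed 15.9% of isolated narrow and 24.7% of isolated wider regions. The narrow share beyond 200 kb, given below, depended on that limit. The stretch between the neighbours on either side of a member had a median of 98.9 kb (quartiles 55.0 and 229.8 kb).

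H3K27me3 was also distant from most members. The median distance to the nearest H3K27me3 region was 107.6 kb (quartiles 37.8 and 266.4 kb), against 105.0 kb (41.6 and 251.2 kb) for solitary wider regions and 73.0 kb (27.4 and 168.0 kb) for narrow regions close to a wider one. Over 1 Mb from H3K27me3 lay 238 members (4.416%, 3.899 to 4.997%) and 89 of the close regions (1.27%, 1.04 to 1.56%). The farthest member was 3927.2 kb from H3K27me3. In this respect the members resembled the solitary wider regions at the median, and both lay farther out than the narrow regions beside wider ones. Both solitary sets were chosen over 10 kb from other H3K4me3, so this contrast with the close regions cannot be read apart from that choice. It was not tested.

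**Figure D2:**
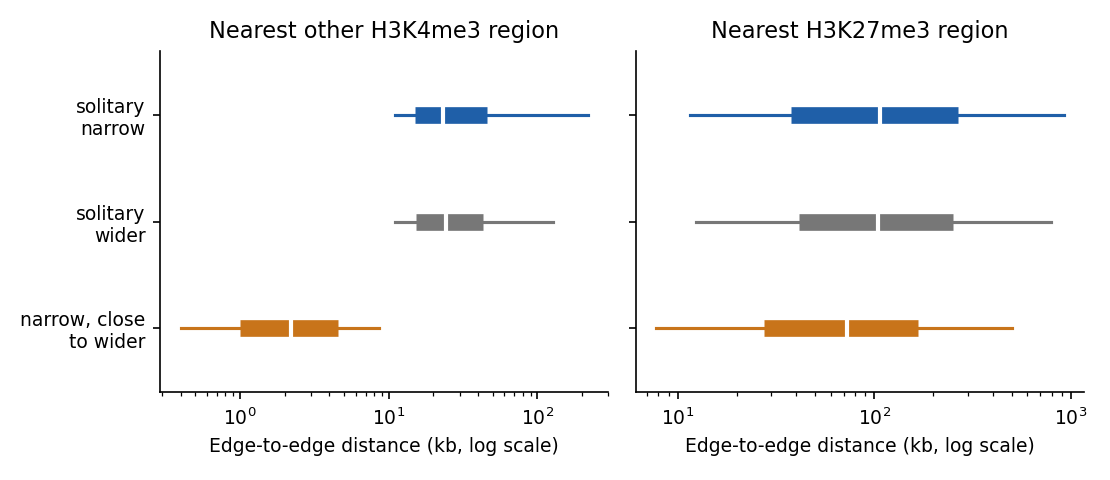
Edge-to-edge distance (kb, log axis) from each region to the nearest other H3K4me3 region (left) and the nearest H3K27me3 region (right) for the 3 sets of regions. White ticks are medians, thick bars quartiles and thin lines the 5th to 95th percentiles. On the left the medians are 23.4 kb for solitary narrow and 24.2 kb for solitary wider regions, and the upper line of the narrow set reaches 219 kb against 128 kb.

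Among all solitary regions, the most remote were mostly narrow. Narrow regions were 40.6% (39.4 to 41.9%) of the 5528 solitary regions with a neighbour over 10 and up to 20 kb away (written 10 to 20 kb, and so for the other classes) and 35.7% (33.4 to 38.03%) of those at 50 to 100 kb. They were 46.1% (42.7 to 49.7%) at 100 to 200 kb, 60.6% (55.8 to 65.3%) at 200 to 500 kb and 67.4% (57.4 to 76.0%) of the 95 regions beyond 500 kb. The median width of all solitary regions was 600 bp at 10 to 20 kb and 400 bp beyond 200 kb. Regions over 1000 bp were 35.5% and 14.8% at those distances. Of the 12 solitary regions more than 1 Mb from any other, 8 were members and none was wider than 800 bp. The share of narrow regions beyond 200 kb, 61.9% (57.6 to 66.1%), depended on the H3K27me3 limit, and with no condition on H3K27me3 it was 50.4%.

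Within the members, the width also changed with isolation. By the distance to the nearest H3K4me3 region of any width, the 200-bp share was 67.8% (64.0 to 71.3%) of the 633 members at 10 to 12 kb. It was 66.4% (64.1 to 68.7%) of the 1614 at 12 to 20 kb, 61.9% (59.7 to 64.1%) at 20 to 50 kb and 49.1% (45.1 to 53.2%) at 50 to 100 kb. By the distance to a wider region, members at 10 to 20 kb had 67.1% (64.7 to 69.5%). Narrow regions 5 to 10 kb from a wider region had 69.7% (67.7 to 71.5%). The classes that follow are again by the distance to a region of any width. Beyond 200 kb it was 43.7% (38.3 to 49.3%), so that 174 of those 309 members had the larger width of 400 bp. From members at 10 to 20 kb to members over 50 kb, the share was lower by 18.6 percentage points (95% interval 15.3 to 22.0, normal approximation, counting only). The order was the same on each of the 19 autosomes, with differences of 1.83 points on chromosome 7 to 34.0 points on chromosome 2 and a median of 17.5. Autosomes share 1 library and are not replicates, and 20 to 114 members per autosome lay beyond 50 kb. These distance classes were chosen after values were seen, and width and distance are both values that the rule used, so the difference is a description only. It is also a difference in a share of narrow regions alone. Of solitary regions of all widths, 27.2% were 200 bp wide at 10 to 20 kb, 17.5% at 50 to 100 kb and 27.1% beyond 200 kb. Regions of 400 bp were 13.5%, 18.1% and 34.9% at those distances. Regions of 200 bp were thus not rarer among all solitary regions beyond 200 kb than at 10 to 20 kb.

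**Figure D3:**
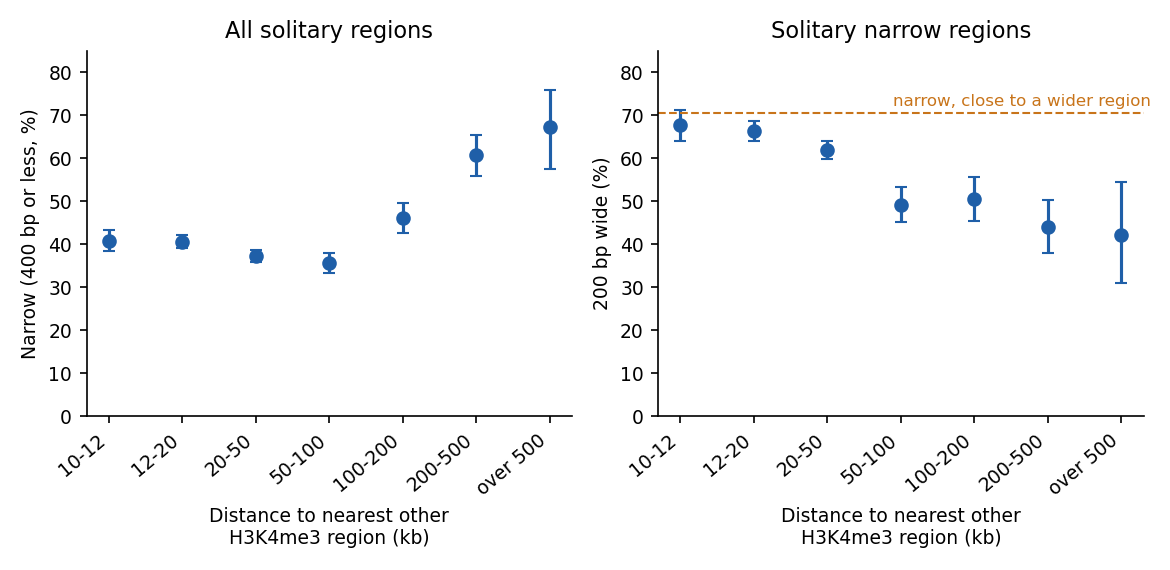
Widths by distance to the nearest other H3K4me3 region (x axis, kb). Left, percentage of all solitary regions that were narrow; right, percentage of solitary narrow regions that were 200 bp wide, with the 70.5% of narrow regions close to a wider region as a dashed line. Bars are 95% Wilson intervals. The left values go from 40.8% at 10 to 12 kb to 67.4% beyond 500 kb, and the right values from 67.8% to 42.2%.

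The width of members also changed with the distance to H3K27me3. The 200-bp share of members was 66.7% (59.7 to 73.0%) at 5 to 10 kb from H3K27me3, 60.9% (58.7 to 63.02%) at 50 to 200 kb and 49.6% (43.3 to 55.9%) beyond 1 Mb. In the close regions it was 70.6% (66.9 to 74.1%), 69.9% (68.1 to 71.5%) and 75.3% (65.4 to 83.1%) at the same distances, with intervals that overlapped. Whether the relation differed between the sets was not tested. In the members it was largest where H3K4me3 neighbours were distant. Where the nearest H3K4me3 region was at 10 to 20 kb, the share was 67.7% (64.4 to 70.7%) within 50 kb of H3K27me3 and 66.3% (62.4 to 70.04%) beyond 200 kb. Where it was at 20 to 50 kb, these shares were 64.7% (61.1 to 68.2%) and 58.8% (54.4 to 63.0%). Where it was over 50 kb away, the share was 63.3% (55.5 to 70.4%) within 50 kb of H3K27me3 and 43.5% (39.8 to 47.3%) beyond 200 kb. The lowest share was thus in members remote from both marks. Width and both distances are values that the rule used, and these classes were added after values were seen, so this is a description only. The class over 50 kb has no upper limit, so the distance to H3K4me3 may still differ within it.

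The neighbours of the members were of all widths. The nearest neighbour was itself narrow for 41.3% (39.996 to 42.6%) of members with a region on both sides, and its median width was 600 bp. For solitary wider regions these values were 37.5% (36.5 to 38.6%) and 800 bp. For close regions they were 24.2% (23.2 to 25.2%) and 1000 bp, which their choice beside a wider region lowers. Both neighbours were narrow for 970 members (18.02%, 17.02 to 19.1%) and for 14.7% (13.9 to 15.4%) of solitary wider regions. The nearest neighbour was narrow about equally often for members of 200 bp (41.7%, 40.02 to 43.4%) and of 400 bp (40.7%, 38.6 to 42.8%). Of all autosomal H3K4me3 regions, 39.4% (38.9 to 39.8%) were narrow, so the share of narrow nearest neighbours of the members was near that of the whole list.

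Members often followed one another along a chromosome with no other H3K4me3 region between them. Such runs of 2 or more numbered 986 and held 2369 members (44.0%), while 3021 members had no other member as a direct neighbour. Among members with a region on both sides, 44.0% (42.7 to 45.3%) had a member as a neighbour, against 37.3% (36.2 to 38.3%) of solitary wider regions. In both sets the neighbour already lies over 10 kb away on the shared side, so the rule favours such runs and shares. Only narrow neighbours can be members, and of all neighbours 41.5% were narrow for members and 36.9% for solitary wider regions. There were 698 runs of 2, 205 of 3, 64 of 4, 12 of 5 and 7 of 6, the longest. Named here, after their values were seen, are 4 of the runs of 6. The most compact of the 7 was chr1:188007201-188434000, which spanned 426.8 kb with 5 of its members 200 bp wide. The run chr2:7002001-9516000 spanned 2514 kb with a median gap of 344 kb. All 6 members of chr4:66398601-67602400 were 200 bp wide. By contrast, 1 of the 6 members of chr3:20071201-21791400 was 200 bp wide, and that run lay at least 1927.6 kb from H3K27me3. These runs thus ranged from members of 200 bp alone to members mostly of 400 bp. The smallest gap between members was 10.2 kb, in 11 pairs, of which the earliest in chromosome order were chr1:91773401-91773600 with chr1:91783801-91784200, and chr3:17120201-17120600 with chr3:17130801-17131000. The second pair stood 564.8 and 554.4 kb from any wider H3K4me3 region.

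The most isolated member was chr5:61042801-61043000, a region of 200 bp with the next H3K4me3 regions 1899.2 kb below and 2113.6 kb above it. An H3K27me3 region lay 22.2 kb from it, so this stretch was empty of H3K4me3 but not of H3K27me3. The next were chr6:79969401-79969600 (1803.2 kb from the nearest H3K4me3 region, 527.0 kb from H3K27me3) and chr12:94829201-94829400 (1643.6 and 1609.0 kb). Both neighbours of each of these 2 were narrow. Regions chr1:150149201-150149400 (1479.4 kb) and chr1:101668601-101669000 (1386.8 kb) followed, both over 1 Mb from H3K27me3 as well. Region chr7:21861601-21862000 had its neighbours 1284.2 kb below and 3004.2 kb above. The other 4 of the 10 most isolated were chr8:6940401-6940800, chr5:47372401-47372800, chr1:49991601-49992000 and chr8:53393801-53394000, at 1098.6, 1000.6, 991.4 and 960.8 kb. Chromosome 1 held 3 of the 10, and 5 of the 10 were 200 bp wide. H3K27me3 lay within 1 Mb of 3 of the 10, namely the top 2 and chr1:49991601-49992000, which was 87.2 kb from it.

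The density of solitary narrow regions varied less between autosomes than that of wider regions or of narrow regions beside them. Over all autosomes there were 2.18 members per Mb, or 1 per 458.7 kb. The density was lowest on chromosome 7 (1.75 per Mb, 267 members) and chromosome 19 (1.81 per Mb, 111 members). It was highest on chromosome 10 (2.68 per Mb, 348 members) and chromosome 9 (2.66 per Mb, 330 members). The highest was 1.53 times the lowest. For wider regions the ratio was 2.48, from 7.76 per Mb on chromosome 14 to 19.2 per Mb on chromosome 11, and for narrow regions close to a wider one it was 2.49, from 1.93 to 4.79 per Mb on the same chromosomes. Solitary wider regions had a ratio of 1.65 (2.59 to 4.28 per Mb), near that of the members. Across the 19 autosomes, the density of close regions went with that of wider regions (Pearson r = 0.941, Spearman rho = 0.921), as their choice favours. The density of members did so weakly (r = 0.157, rho = 0.188), and with the density of solitary wider regions r was 0.484 and rho 0.565. The rule keeps members over 10 kb from every wider region, which by itself holds their number down where wider regions are dense, so neither the weak relation nor the narrower range of density can be read apart from the choice of members. These coefficients describe 1 library and carry no test. On chromosome 11, the densest in H3K4me3, 21.1% of narrow regions were solitary, and on chromosome 13 the share was 37.5%.

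**Figure D4:**
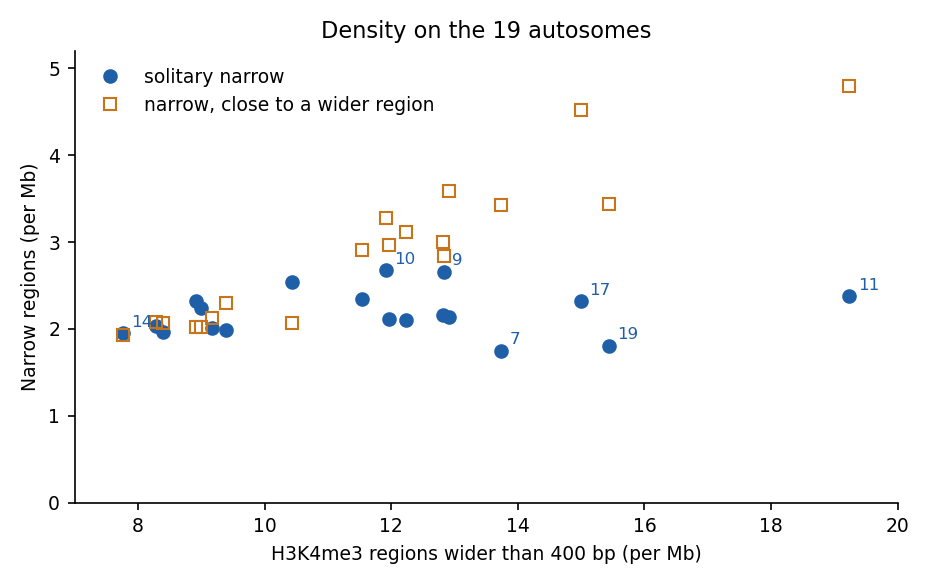
Narrow H3K4me3 regions per Mb (y axis) against H3K4me3 regions wider than 400 bp per Mb (x axis), 1 point per autosome and set. Filled circles are solitary narrow regions, some with their chromosome number, and open squares are narrow regions close to a wider one. The circles stay between 1.75 and 2.68 per Mb, whereas the squares range from 1.93 to 4.79 per Mb.

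At the scale of 1 Mb, members were found in most of the genome. Of 2463 full windows on the autosomes, 77.9% held at least 1 member, and 319 (13.0%) held 5 or more. Windows with 11 to 20 wider regions had the most, 3.42 ± 2.14 members per window (SD over 531 windows). Windows with no wider region had 0.545 ± 0.920 (319 windows), and those with over 40 had 2.04 ± 1.67 (94 windows). Narrow regions close to a wider one went from 0.109 per window at 1 to 2 wider regions to 15.0 at over 40. Their choice beside a wider region favours this rise. The distance limit leaves less room for members in crowded windows, so lower counts there follow in part from the rule. The 319 windows without a wider region held 174 members, in 109 windows, of which 89 had no H3K27me3 region either. In 204 windows no H3K4me3 region of any width was called. Windows, densities per Mb and the chromosome parts below use full mm9 lengths. Stretches without assembled sequence, where nothing can be called, were not taken out.

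**Figure D5:**
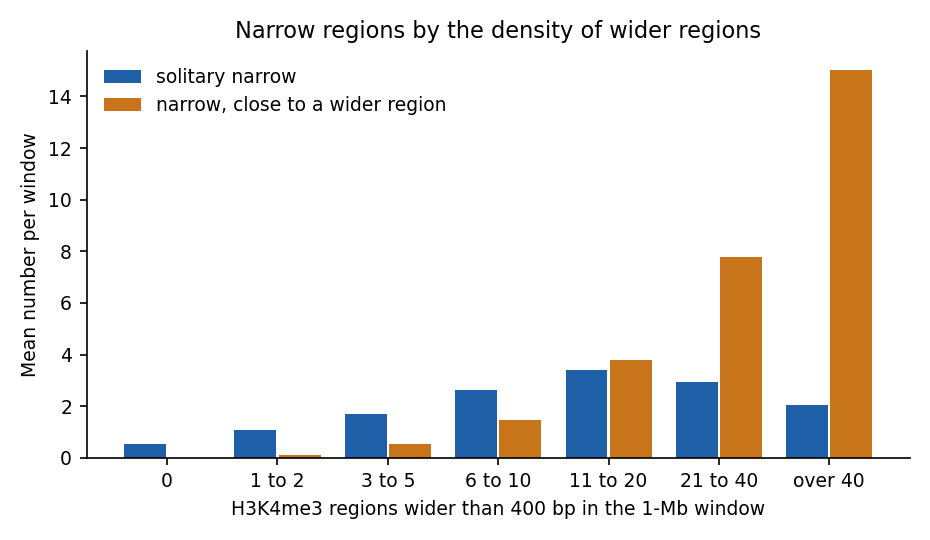
Mean number of narrow regions per 1-Mb window (y axis) by the number of H3K4me3 regions wider than 400 bp in the window (x axis). Blue bars are solitary narrow regions and orange bars narrow regions close to a wider one; bars are means over windows, without error bars. Blue bars are highest, at 3.42, in windows with 11 to 20 wider regions, and orange bars reach 15.0 in windows with over 40.

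The windows richest in members were 1 with 13, 1 with 11 and 5 with 10. The first was chr9:96000001-97000000, with 13 members, 9 of them 200 bp wide, among 20 wider regions, and gaps of 12.2 to 119.2 kb between consecutive members. Next was chr10:40000001-41000000, with 11 members at gaps of 10.4 to 155.2 kb, all at least 49.6 kb from H3K27me3. The windows chr1:130000001-131000000, chr5:129000001-130000000 and chr10:70000001-71000000 held 10 each and are the earliest in chromosome order of the 5 tied at that number. That on chromosome 5 also held 35 H3K27me3 regions, against 1 in the window on chromosome 1, so these 2 windows differed in H3K27me3 at the same number of members.

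Along the chromosomes, members were less shifted toward the far end than close regions were. Each autosome was cut into 3 parts of equal length by mm9 coordinate. The last part held 36.1% (34.8 to 37.4%) of members and 45.1% (43.9 to 46.3%) of close regions. The opening part held 29.5% (28.3 to 30.7%) and 26.7% (25.6 to 27.7%). Solitary wider regions, at 36.2% (35.1 to 37.2%) in the last part, differed from the members by less than these intervals.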

How the data were processed

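The authors deposited 1 list of regions for each mark, with chromosome, start, end and name in separate columns and no other values. The submitters' processing notes name Bowtie 0.12.7 and, as genome build, mm9. The file names call the regions contiguous chromHMM regions, and how the program was set, whether it used the input and how replicates were merged is not given in the sources used here. All 19 autosomes fitted the mm9 lengths from GenomeInfoDb 1.38.1. Distances are edge to edge, and coordinates count from 1. The analysis used Python 3.11.15, numpy 2.4.6, pandas 2.3.3 and scipy 1.17.1, and the distance code was tested on simulated data. The members and all lists were chosen with earlier results of these data known. Named regions follow a rule: the 10 most isolated members, the 5 on either side of the 10000 bp limit, 5 of the richest 1-Mb windows and 2 of the closest pairs, with ties broken by chromosome number and then start. Outside this rule, 4 of the 7 longest runs were named after their values were seen. The runs, the width comparisons by isolation and by H3K27me3 distance, the parts of chromosomes and the solitary wider set were added after values were seen. Gene, sequence and marker analyses are not included, because no mm9 genome or annotation was used here.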

Additional observations from a re-analysis of the deposited data

How the results depend on the processing

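Of 24 values of the main results under alternatives, 13 stayed alike (within 1.5 times for counts and densities, inside the 95% interval for shares) and 11 moved. Counts, shares and densities have no direction, so only the difference in 200-bp share by isolation could have reversed, and it did not. The limit of 1.5 times is wide. The 7809 members at over 5 kb from other H3K4me3 counted as like the 5390 of the rule. The number of members was 3276 for regions of 200 bp alone and 3143 at over 20 kb from other H3K4me3, which took the density to 1.27 per Mb. The 200-bp share of members became 63.4% at over 5 kb and 56.5% at over 20 kb from other H3K4me3. Close regions numbered 2581 at 2 kb or less and 1444 at 1 kb or less. Their 200-bp share was 72.5% at 2 kb or less and 68.0% with no condition on H3K27me3. The difference in 200-bp share between near and remote members was 13.5 points by the distance to wider regions alone, and the narrow share beyond 200 kb was 50.4% with no condition on H3K27me3. Stricter limits admit fewer regions by construction, and other causes were not tested. Joining H3K4me3 regions under 1 kb apart left 5390, since joined regions exceed 400 bp, so this alike value was fixed in advance. With members over 20 kb from other H3K4me3, the density was lowest on chromosome 19 (0.913 per Mb) and highest on chromosome 13 (1.52 per Mb); with no condition on H3K27me3, on chromosomes 7 (2.14) and 9 (3.09). The difference by isolation, the narrow share beyond 200 kb and their alternatives were chosen after seeing the data. Alternatives needing an mm9 genome or annotation were not run. No paired analysis was possible because each mark has 1 list. Depth is unknown.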
